A study of Mus musculus with 12 samples.

Results

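Immediate early genes and chaperone genes were followed over 3 sorted cell populations of the adult mouse dentate gyrus. Members were the genes of the deposited table above 0 in at least 4 libraries whose mouse symbol began with a name of either family, such as Fos, Egr, Ier, Nr4a, Dusp, Klf, Gadd45 and Sgk1, or Hspa, Hspb, Hspe and Dnaj. The pattern fitted 77 of the 10749 listed genes, and 72 were above 0 in at least 4 libraries. Of these, 33 were immediate early genes or their close relatives, 34 were chaperone genes and 5 matched by letters only. A core of 15 genes, most with classical rapid induction, was described apart from the other 18 of the immediate early side. It held Fos, Fosl2, Jund, Egr1, Egr2, Egr3, Ier3, Nr4a1, Dusp5, Dusp6, Klf2, Klf6, Gadd45b, Gadd45g and Sgk1. The filter on low values passed 70 members, of which 31 were on the immediate early side and 34 on the chaperone side. Jun, Junb, Fosb, Atf3, Ier2, Dusp1, Btg2, Klf4, Zfp36, Arc, Hspa1a, Hspa1b, Hsp90aa1, Hsp90ab1, Hspd1 and Hsph1 were not analysed here.

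Immediate early genes are transcribed within minutes of a stimulus, without the need for new protein, by factors that are already present and are switched on by MAP kinase and calcium signals. Their products are mostly short-lived transcription factors, together with phosphatases of the Dusp family that shut the MAP kinases off again. In the dentate gyrus they are best known as marks of neuronal activity, and they are also known to respond when tissue is dissociated and sorted. Chaperones of the Hsp70 family fold proteins with the help of J-domain proteins, the Dnaj genes, while small heat shock proteins hold unfolded proteins in solution. Many chaperones are expressed in every cell, and a subset is induced through heat shock factor or the stress response of the endoplasmic reticulum.

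The libraries came from 8-week-old LPA1-GFP mice, which carry the transgene Tg(Lpar1-EGFP)GX193Gsat, a green fluorescent reporter of the gene of a lysophosphatidic acid receptor. The line had an FVB/N-Swiss Webster background and was rederived by in vitro fertilisation into C57BL/6. In stem libraries the cells carried all 3 sort marks, LPA1-GFP, EGFR and Prominin-1 (n = 4). Progenitor libraries held GFP-positive cells that lacked EGFR, Prominin-1 or both (n = 4), and niche libraries held GFP-negative cells (n = 4). All 3 populations carried the transgene, were sorted from fresh tissue, and had the RNA of 1000 cells amplified before sequencing. Whether each replicate came from 1 animal or from several is not stated in the labels. The p-values therefore cover the variation among these libraries only, which may in part be technical. In such bulk samples, fewer cells of a type and less RNA per cell cannot be told apart.

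Depth ran from 7597256 to 22854036 reads per library. Egfr, whose product was used for the sort, was higher in stem than in progenitor libraries, with a log2 fold change of 2.64 ± 0.68 (SE; adjusted p = 0.0272). Lpar1 and Prom1 were not analysed here. Progenitor replicate 1 and niche replicate 1 stood apart from their groups. Progenitor replicate 1 was the lowest of its 4 libraries for 45.4% of the 8360 tested genes and the highest for 42.1%, and niche replicate 1 was the lowest for 45.3%. Niche replicate 1 had the highest summed red cell markers, 1080000 scaled RPKM. Levels below are reads per kilobase of exon scaled to library depth (RPKM), divided by a further scaling factor per library (scaled RPKM). Fold changes are differences of log2(scaled RPKM + 1) with their SE, and calls are adjusted p-values under 0.05 from limma.

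Several core immediate early genes were higher in stem than in progenitor libraries, while almost no chaperone passed the test. Of the 13 core genes tested, 7 were higher in stem (Fos, Egr2, Ier3, Nr4a1, Dusp6, Klf2 and Klf6) 1 was lower (Sgk1) and 5 were not called. The core was set apart with earlier results of these data known, so its count is a description. Its median log2 fold change was 2.12, against -0.06 over all tested genes. Over all tested genes, 7.11% were called in this comparison, and 3.71% were higher and 3.4% lower. The whole immediate early side, with 31 genes tested, had 7 higher and 2 lower and a median of 0.17. The 18 genes outside the core had none higher, 1 lower (Dusp4) and a median of -0.44. Of the 31 genes of the whole side, 8 had every stem library above every progenitor library and 5 had every one below. Over all tested genes these shares were 11.5% and 13.2%. Outside the core, 1 of the 18 was above and 4 were below. None of the 34 chaperones was called higher and 1 was called lower, Hspa2, with a median of 0.01. Without stem replicate 2, 5 immediate early genes were called, 4 higher and 1 lower, where 4.28% of all genes were. Without progenitor replicate 1 and niche replicate 1 together 10 were called, 7 higher and 3 lower, where 13.5% of all genes were. Without those 2 libraries 3 chaperones were called, 1 higher and 2 lower, 5 were called without niche replicate 1 alone, 1 higher and 4 lower, and 2 without niche replicate 3. Without niche replicate 1, 13.1% of all genes were called, and without niche replicate 3, 7.74% were.

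Against the niche some of the core genes were again higher in stem, and 4 of the 5 chaperones that passed the test were lower. Of the 13 core genes, 6 were higher in stem (Fos, Egr1, Egr2, Ier3, Klf6 and Gadd45g) 1 was lower (Sgk1) and 6 were not called, with a median log2 fold change of 1.65, against 0.09 over all tested genes. The background was 10.9% of genes called higher and 10.7% called lower. The whole immediate early side had 8 higher and 2 lower of 31, with a median of 0.41, and the 18 genes outside the core had 2 higher, 1 lower and a median of -0.2. Of the 31 genes of the whole side, 7 had every stem library above every niche library and 2 had every one below. Over all tested genes these shares were 12.3% and 10.4%. Outside the core, 1 of the 18 was above and 1 was below. Of the 34 chaperones 1 was higher, the pseudogene Hspd1-ps3, and 4 were lower, so 5 of 34 were called where 21.6% of all genes were. With library size alone as the scaling the split turned, to 10 chaperones higher and 3 lower, while the median of all tested genes moved to 0.58. Without progenitor replicate 1 and niche replicate 1 together 11 chaperones were called, 3 higher and 8 lower, and 13 immediate early genes, 8 higher and 5 lower, where 36.2% of all genes were called. The number of chaperones called was 9 without niche replicate 1, 2 higher and 7 lower, where 29.8% of all genes were called.

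Progenitor and niche libraries differed in both directions on the immediate early side. Dusp10, Dusp4 and Gadd45g were higher in progenitor libraries, and Dusp6, Dusp7 and Klf2 were lower, 6 of 31 genes where the background was 11.5%, with 5.68% higher and 5.78% lower. Every progenitor library was above every niche library for 3 of the 31 and below for 5, against 8.79% and 6.81% of all genes. The core had 1 gene higher and 2 lower, with a median log2 fold change of -1.08, against 0.15 over all tested genes. Of the 34 chaperones, Hspb1 alone was called, lower in progenitor libraries, and the median was -0.05. Without progenitor replicate 1 and niche replicate 1 together 10 immediate early genes were called, 6 higher and 4 lower, where 24.0% of all genes were. That fit called 5 chaperones, as did the fit without niche replicate 1 alone, in which 19.7% of all genes were called. None was called without progenitor replicate 4, 3 were called without niche replicate 4, and 2 without progenitor replicate 1. The 3 comparisons share their libraries, so their values stand side by side and do not support each other.

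**Figure D1:**
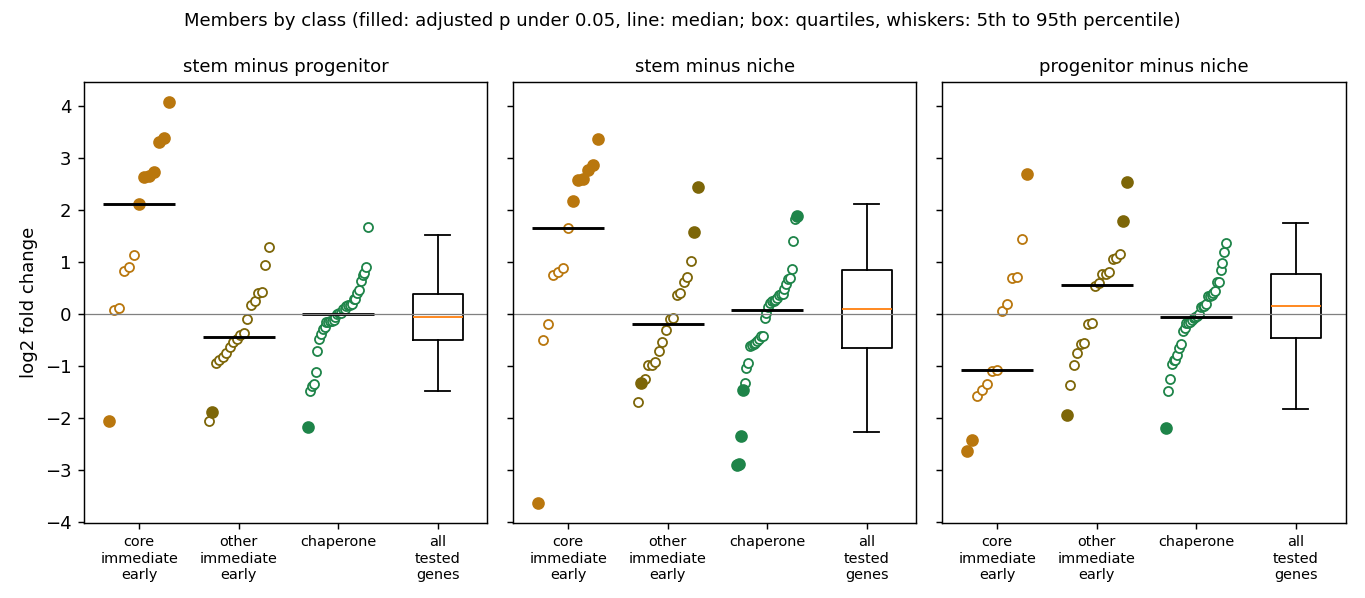
Log2 fold change of each tested member (points, filled where adjusted p was under 0.05) by class in the 3 comparisons, with the class median as a line and all tested genes as a box (quartiles, with whiskers from the 5th to the 95th percentile). The core median lies at 2.12 for stem minus progenitor, while the chaperone median stays between -0.05 and 0.08 in all 3 panels.

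Fos, which encodes a subunit of the AP-1 transcription factor, lies at chr12:85473890-85477273 (GRCm38, plus strand). It had 841, 1460, 504 and 387 scaled RPKM in stem libraries, against 23.5, 216, 159 and 190 in progenitor libraries and 13.6, 162, 93.3 and 96.6 in niche libraries. All stem libraries lay above all others, and replicate 1 was by far the lowest of its group in both. Fos had a log2 fold change of 2.63 ± 0.75 between stem and progenitor libraries (adjusted p = 0.0436) and 3.36 ± 0.75 between stem and niche libraries (adjusted p = 0.00449). The call against progenitor was lost on leaving out any of 8 of the 12 libraries. These were each of the 4 stem libraries, progenitor replicates 1 and 3 and niche replicates 3 and 4, with adjusted p from 0.053 to 0.159. The fold change without progenitor replicate 1 was 1.91. The call was also lost with library size alone as the scaling (adjusted p = 0.0806), with no filter (0.0682) and with a pseudocount of 0.1 RPKM (0.056), so it failed in 11 of the 21 alternatives.

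Egr2, a zinc finger transcription factor at chr10:67535475-67542188, had 30.6, 36.3, 12 and 10.7 scaled RPKM in stem libraries, against 3.68, 2.32, 1.94 and 1.44 in progenitor libraries and 0.532, 3.81, 3.87 and 0.763 in niche libraries. The lowest stem library was above the highest of the other 8, and stem replicates 1 and 2 were higher than 3 and 4. Egr2 had a log2 fold change of 2.66 ± 0.55 against progenitor (adjusted p = 0.00696) and 2.87 ± 0.55 against niche (adjusted p = 0.00159), and both calls held in all 21 alternatives tried.

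Ier3, which encodes a small protein linked to survival and ERK signalling (chr17:35821684-35822923), showed the widest gap. It had 322, 737, 148 and 167 scaled RPKM in stem libraries, against 2.14, 31.9, 20.3 and 33.3 in progenitor libraries and 81.9, 36.6, 30.1 and 45.3 in niche libraries. No stem library overlapped with either of the other groups, and progenitor replicate 1 was again far below its group. Ier3 had a log2 fold change of 4.07 ± 0.68 against progenitor (adjusted p = 0.00165), the largest of any member in that comparison. Against niche it was 2.6 ± 0.68 (adjusted p = 0.0128), a call that was lost without stem replicate 2 (log2 fold change 2.13, adjusted p = 0.0506).

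Klf6, a Krüppel-like transcription factor at chr13:5861482-5870394, had 94.7, 246, 83.2 and 48.1 scaled RPKM in stem libraries, against 8.07, 29.2, 34.6 and 26.9 in progenitor libraries and 26.6, 13.0, 15.9 and 35.0 in niche libraries. Stem libraries lay above all others. Klf6 had a log2 fold change of 2.12 ± 0.53 against progenitor (adjusted p = 0.0218) and 2.18 ± 0.53 against niche (adjusted p = 0.00808). The call against progenitor was lost on leaving out stem replicate 1 (adjusted p = 0.0565), stem replicate 2 (0.0943) or progenitor replicate 1 (0.0821).

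Dusp6 and Klf2 shared a different order, with low levels in progenitor libraries and overlapping levels in the other populations. Dusp6 encodes a cytosolic phosphatase of ERK and is itself induced by ERK signalling (chr10:99263231-99267489). It had 180, 353, 84.1 and 111 scaled RPKM in stem libraries, against 1.78, 33.6, 19.1 and 25.3 in progenitor libraries and 238, 63.7, 44.9 and 107 in niche libraries. The highest progenitor library was below every other library, and stem and niche libraries overlapped. Dusp6 had a log2 fold change of 3.39 ± 0.71 between stem and progenitor (adjusted p = 0.00738), 0.75 ± 0.71 between stem and niche (adjusted p = 0.485) and -2.64 ± 0.71 between progenitor and niche (adjusted p = 0.0254). The last call was lost with library size alone as the scaling (adjusted p = 0.0554), with those 2 groups alone in the fit (0.0582) and with voom (0.0503).

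Klf2, a Krüppel-like factor known from endothelium and leukocytes (chr8:72319033-72321656), had 26.9, 93.4, 32.0 and 15.3 scaled RPKM in stem libraries, against 0.908, 5.02, 2.33 and 2.80 in progenitor libraries and 41.2, 11.2, 14.8 and 13.8 in niche libraries. Progenitor libraries were again below all others. Klf2 had a log2 fold change of 3.31 ± 0.58 between stem and progenitor (adjusted p = 0.00225) and -2.42 ± 0.58 between progenitor and niche (adjusted p = 0.0134), and both calls held in all 21 alternatives.

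Nr4a1, an orphan nuclear receptor (chr15:101254269-101274795), had 24.8, 66.3, 15.8 and 8.27 scaled RPKM in stem libraries, against 0.296, 4.6, 3.91 and 2.89 in progenitor libraries and 0.637, 14.0, 9.39 and 9.99 in niche libraries. Stem libraries were above all progenitor libraries and overlapped with niche libraries. Nr4a1 had a log2 fold change of 2.73 ± 0.75 against progenitor (adjusted p = 0.0378) and 1.65 ± 0.75 against niche (adjusted p = 0.132). The first call was lost on leaving out any of 7 of the 12 libraries, with adjusted p from 0.0557 to 0.152. These were stem replicates 1, 2 and 3 and all 4 progenitor libraries. It was also lost with no filter (adjusted p = 0.0552), a pseudocount of 0.1 RPKM (0.0699) and voom (0.0549), in 10 of the 21 alternatives in all.

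**Figure D2:**
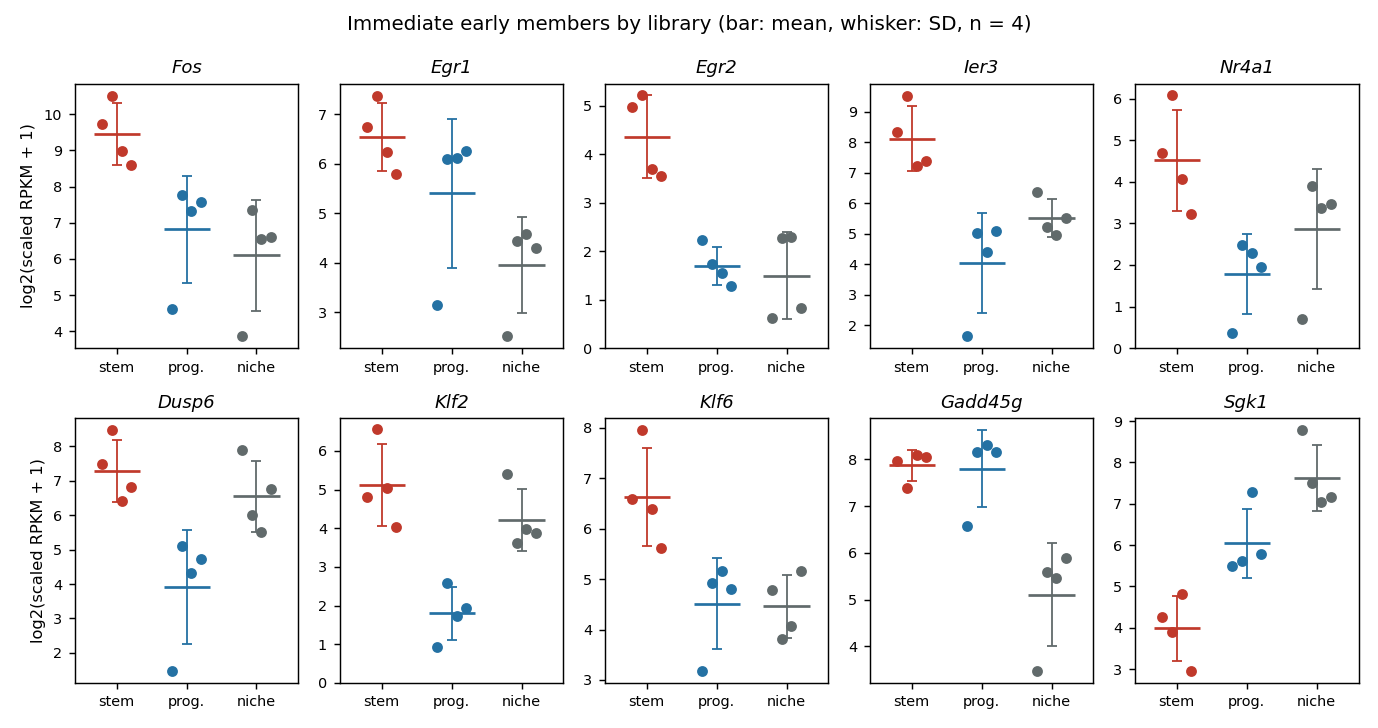
Level of 10 core immediate early genes in each of the 12 libraries, as log2(scaled RPKM + 1), with stem, progenitor (prog.) and niche libraries from left to right, the group mean as a bar and the SD as a whisker (n = 4). The lowest stem library exceeds all 8 others for Fos, Egr2, Ier3 and Klf6, whereas the lowest points of Fos and Egr1 in progenitor and niche are replicate 1.

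The promoters of Fos, Egr2, Nr4a1 and Ier3, picked from the members called between stem and progenitor, carry different letters upstream of the start. The stretches below are the 150 bases before a start of transcription in RefSeq on GRCm38.p6, plus strand, from 5′ to 3′. Capitals mark the CRE core TGACG on either strand (CGTCA on the minus strand), the TATA box TATAAA, and the CArG box bound by serum response factor.
Fos, chr12:85473740-85473889: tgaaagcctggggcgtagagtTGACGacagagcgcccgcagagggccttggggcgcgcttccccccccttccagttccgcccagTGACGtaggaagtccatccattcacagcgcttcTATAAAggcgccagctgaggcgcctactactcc
Egr2, chr10:67537720-67537869: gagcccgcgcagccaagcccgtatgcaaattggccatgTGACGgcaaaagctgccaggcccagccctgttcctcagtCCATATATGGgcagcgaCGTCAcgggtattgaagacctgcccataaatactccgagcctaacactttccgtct
Nr4a1, chr15:101266696-101266845: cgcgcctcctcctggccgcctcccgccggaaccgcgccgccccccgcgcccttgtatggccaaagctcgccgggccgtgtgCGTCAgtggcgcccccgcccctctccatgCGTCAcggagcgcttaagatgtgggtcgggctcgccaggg
Ier3, chr17:35821563-35821712: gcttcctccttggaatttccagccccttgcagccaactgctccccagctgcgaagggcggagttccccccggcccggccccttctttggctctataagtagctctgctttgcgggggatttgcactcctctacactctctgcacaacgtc
The Fos, Egr2 and Nr4a1 stretches each hold the CRE core more than once, and the Egr2 stretch alone of these holds a CArG box. Sites more than 150 bases before a start are not shown. Egr2 has several starts, and its stretch was chosen for a CArG box and for the most motif matches. The CArG box in it was thus set by that choice. None of the searched letters is in the Ier3 stretch.

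Motifs were counted in windows from 250 bases before to 50 bases after each start, which were given for 55 of the 72 members. The CRE core was in 36.4% of the 22 windows of core immediate early genes and in 56.8% of the 37 chaperone windows, against 20.8% of all 32851 windows. The CArG box was in 5 of the 22 core windows, from Dusp5 and Egr2, and most of the windows of Egr2 overlap each other. It was in 1.63% of all windows and in none of the chaperone windows. The full CRE palindrome, the AP-1 site TGANTCA and the Egr element were in none of the 22 core windows, against 1.79%, 7.81% and 0.612% of all windows. Both strands were searched, and the CRE core is part of the full CRE. A match is a description of letters and does not show that a factor binds there. Bases more than 250 before a start were not searched, so a window without a motif does not show that the promoter lacks it.

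Gadd45g and Dusp10 were higher in both GFP-positive populations than in niche libraries. Gadd45g, a growth arrest and stress protein that acts on MAP kinase signalling (chr13:51846678-51848468), had 248, 166, 273 and 263 scaled RPKM in stem libraries, against 94.8, 286, 317 and 285 in progenitor libraries and 10.1, 47.3, 43.3 and 58.1 in niche libraries. All 8 GFP-positive libraries were above all niche libraries, and stem and progenitor libraries overlapped. Gadd45g had a log2 fold change of 2.77 ± 0.49 between stem and niche (adjusted p = 0.000821) and 2.70 ± 0.49 between progenitor and niche (adjusted p = 0.00192), while that between stem and progenitor was 0.07 ± 0.49 (adjusted p = 0.976).

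Dusp10, a phosphatase of the stress-activated MAP kinases, had 19.5, 2.46, 11.5 and 7.99 scaled RPKM in stem libraries, against 19.5, 6.79, 4.95 and 10.1 in progenitor libraries and 0.53, 0.073, 2.51 and 0.579 in niche libraries. Stem replicate 2 lay just below niche replicate 3, so stem and niche overlapped, while progenitor and niche did not. Dusp10 had log2 fold changes of 2.44 ± 0.60 between stem and niche (adjusted p = 0.0088) and 2.54 ± 0.60 between progenitor and niche (adjusted p = 0.0126).

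Egr1, a zinc finger transcription factor and a standard mark of neuronal activity, fell between these patterns. It had 106, 165, 74.6 and 54.3 scaled RPKM in stem libraries, against 7.86, 67.6, 68.0 and 75.4 in progenitor libraries and 4.73, 20.6, 23.0 and 18.8 in niche libraries. Stem libraries were above all niche libraries but overlapped with progenitor libraries. Egr1 had a log2 fold change of 2.57 ± 0.65 between stem and niche (adjusted p = 0.0106) and 1.13 ± 0.65 between stem and progenitor (adjusted p = 0.426). Between progenitor and niche it was 1.44 ± 0.65 (adjusted p = 0.168), and it passed the test without progenitor replicate 1 (log2 fold change 2.12, adjusted p = 0.0155).

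Klf11, a factor induced by transforming growth factor beta, was low throughout. It had 1.26, 6.43, 1.27 and 3.68 scaled RPKM in stem libraries, against 0.407, 2.47, 2.53 and 2.36 in progenitor libraries and 0.522, 0.0503, 0.126 and 0.279 in niche libraries. Stem libraries lay above all niche libraries, with a log2 fold change of 1.57 ± 0.47 (adjusted p = 0.0267). That call was lost without stem replicate 2, stem replicate 4, niche replicate 2 or niche replicate 3, with adjusted p from 0.0559 to 0.0788. The niche values rest on 10, 3, 6 and 7 reads, and the fold change ran from 0.69 to 3.83 over the alternatives.

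Sgk1 was the only core gene called lower in stem, against progenitor and against niche. It encodes a kinase induced by serum and glucocorticoids (chr10:21882184-21999903). It had 18.1, 13.9, 27.3 and 6.77 scaled RPKM in stem libraries, against 44.4, 48.4, 155 and 53.7 in progenitor libraries and 437, 179, 130 and 142 in niche libraries. Every stem library was below every other library, and progenitor replicate 3 reached into the niche range. Sgk1 had a log2 fold change of -2.06 ± 0.50 between stem and progenitor (adjusted p = 0.0177) and -3.63 ± 0.50 between stem and niche (adjusted p = 8.4e-05). Between progenitor and niche it was -1.57 ± 0.50 and just missed the threshold (adjusted p = 0.0524). The call between stem and progenitor was lost on leaving out stem replicate 2 (adjusted p = 0.0575), stem replicate 4 (0.066) or progenitor replicate 3 (0.0661). The difference between progenitor and niche passed without stem replicate 4, progenitor replicate 3, niche replicate 3 or niche replicate 4, with adjusted p from 0.0214 to 0.0476.

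Klf9, which like Sgk1 is induced by glucocorticoids, had 18.8, 15.5, 19.8 and 13.6 scaled RPKM in stem libraries, against 27.5, 32.1, 23.5 and 33.1 in progenitor libraries and 50.8, 36.2, 37.7 and 50.2 in niche libraries. The 3 groups did not overlap. Klf9 had a log2 fold change of -1.32 ± 0.31 between stem and niche (adjusted p = 0.00701) and -0.75 ± 0.31 between stem and progenitor (adjusted p = 0.207). The call against niche was lost with library size alone as the scaling (log2 fold change -0.65, adjusted p = 0.145).

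Among the remaining phosphatases, Dusp4 was detected mainly in progenitor libraries. Dusp4, a nuclear phosphatase of ERK (chr8:34807297-34819894), had 0.35, 0, 0 and 0 scaled RPKM in stem libraries, against 4.09, 2.89, 2.63 and 2.42 in progenitor libraries and 0.212, 0, 0.0854 and 0.324 in niche libraries. These are 7, 0, 0 and 0 reads in stem libraries and 104 to 128 reads in progenitor libraries, where 3 reads correspond to 0.131 to 0.395 CPM, reads scaled to library depth. Dusp4 had a log2 fold change of -1.88 ± 0.30 between stem and progenitor (adjusted p = 0.0013) and 1.79 ± 0.30 between progenitor and niche (adjusted p = 0.00107), and both calls held in all 21 alternatives. With 3 stem libraries at 0 the size depends on the pseudocount, and the fold change between stem and progenitor ran from -6.15 to -0.77 over the alternatives.

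Dusp7, a cytosolic phosphatase of ERK related to Dusp6, had 11, 27.5, 7.83 and 9.17 scaled RPKM in stem libraries, against 12.5, 6.34, 4.95 and 2.74 in progenitor libraries and 20.5, 18.3, 29.9 and 36.7 in niche libraries. Progenitor libraries were below all niche libraries, with a log2 fold change of -1.94 ± 0.50 (adjusted p = 0.0201). That call was lost without progenitor replicate 2, 3 or 4, with adjusted p of 0.051, 0.0625 and 0.0773, or with library size alone as the scaling (0.0759). Of the 10 Dusp members, 9 were tested, and between stem and progenitor 1 was higher (Dusp6) and 1 lower (Dusp4). In that comparison 7.11% of all genes were called.

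The other immediate early genes passed no test. Jund, an AP-1 subunit that is expressed without stimulation, had 10.6 to 33.1 scaled RPKM in stem libraries, 12.3 to 19.5 in progenitor libraries and 3.92 to 14.4 in niche libraries. Atf4, whose protein is controlled mainly at translation, had 65.2 to 103, 51.3 to 97.5 and 29.2 to 99.2 in the same order, and Btg1, an antiproliferative protein, had 70.0 to 117, 88.6 to 194 and 101 to 213. For these 3 genes all 3 pairs of groups overlapped.

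Gadd45b, the stress-induced relative of Gadd45g, varied widely within groups, from 4.32 to 29.5 scaled RPKM in stem libraries, 0.405 to 7.69 in progenitor libraries and 0.88 to 60.2 in niche libraries. Fosl2, an AP-1 subunit, had 0.591 to 5.12, 0.615 to 0.735 and 2.40 to 4.34, with progenitor libraries below all niche libraries (log2 fold change -1.34 ± 0.45, adjusted p = 0.0645). Fosl2 passed the test without niche replicate 1 (adjusted p = 0.0478) or stem replicate 2 (adjusted p = 0.0447).

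The other phosphatases and Krüppel-like factors, Dusp18, Dusp19, Dusp22, Dusp26, Dusp28, Klf1, Klf3, Klf5, Klf8 and Klf15, and the factor Atf1 were mostly low. Dusp22, a phosphatase of the JNK pathway, had 13.3 to 31 scaled RPKM in stem libraries, all above the 5.74 to 9.17 in progenitor libraries, with 9.15 to 29.4 in niche libraries. Its log2 fold change was 1.29 between stem and progenitor (adjusted p = 0.107). Dusp26, a phosphatase enriched in neurons, had 0, 0, 0.308 and 1.8 in stem libraries, against 7.32, 3.35, 9.73 and 1.83 in progenitor libraries and 0.115 to 11.9 in niche libraries. Between stem and progenitor it differed by -2.06 (adjusted p = 0.0911), with no overlap, and its stem values rest on 0, 0, 8 and 46 reads. Dusp28 had between 0.198 and 3.77 scaled RPKM in stem libraries, 1.52 to 9 in progenitor libraries and 0.548 to 93 in niche libraries. Klf1, the erythroid member, reached at most 3.77 in any library.

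Egr3 and Dusp5 were below the filter and were not tested. Egr3, which acts downstream of neuronal activity, had 0.0484 to 0.25 scaled RPKM in stem libraries and 0.0509 to 0.317 in progenitor libraries, at 1 to 6 reads each, against 1.28, 5.44, 2.30 and 2.07 in niche libraries, at 9 to 119 reads. Niche libraries were thus above all others for Egr3, the reverse of Egr2. Dusp5 had 0.0574, 2.50, 0.529 and 0.248 in stem libraries, 6.64, 0.126, 0.198 and 0.174 in progenitor libraries and 0.0781 to 0.486 in niche libraries, with the highest value in progenitor replicate 1.

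Within the stem group the core genes moved with the library. Stem replicate 2 was the highest of the 4 stem libraries for 11 of the 13 core genes and stem replicate 4 the lowest for 9, where over all tested genes these shares were 27.5% and 21.3%. In the progenitor group, replicate 1 was the lowest for 10 of the 13, while over all tested genes it was the lowest for 45.4% and the highest for 42.1%. The median core level, as log2(scaled RPKM + 1), was 4.98, 6.56, 5.04 and 4.03 in stem libraries, against 2.23, 4.92, 4.33 and 4.72 in progenitor libraries and 3.87, 3.98, 4.08 and 4.31 in niche libraries. Stem replicate 4 thus lay below progenitor replicates 2, 3 and 4 in this median. The median chaperone level, on the same scale, spanned only 4.16 to 4.35 in stem libraries, 3.95 to 4.06 in progenitor libraries and 4.09 to 4.48 in niche libraries.

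The core median minus the chaperone median of the same library, in which the scaling factor largely cancels, was 0.66, 2.21, 0.88 and -0.22 in stem libraries, against -1.82, 0.86, 0.34 and 0.77 in progenitor libraries and -0.22, -0.50, -0.20 and -0.06 in niche libraries. Stem replicates 1 to 3 were above all niche libraries, but stem and progenitor libraries overlapped. With the whole immediate early side in place of the core, the difference was between -1.10 and -0.31 in every library.

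Set against Hspa8, the most abundant chaperone member, Fos set the stem libraries apart without any scaling between libraries, while progenitor and niche libraries overlapped. Fos was 45.4, 63.1, 44.3 and 24.9% of the Hspa8 RPKM in stem libraries, against 1.97, 12, 11.8 and 11.4% in progenitor libraries and 0.853, 10.7, 10 and 7.83% in niche libraries. Ier3 was 17.4, 31.9, 13.0 and 10.8% in stem libraries, against 0.179, 1.78, 1.5 and 2% in progenitor libraries and 5.15, 2.43, 3.23 and 3.67% in niche libraries. For both ratios the lowest stem library was above the highest of the other 8.

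**Figure D3:**
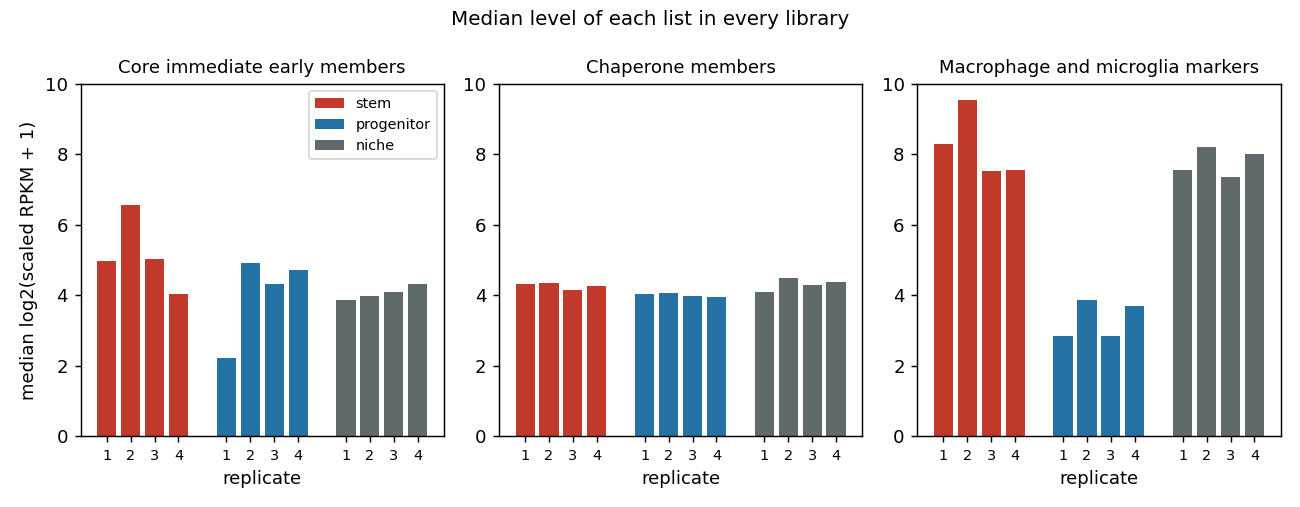
Median log2(scaled RPKM + 1) of the tested core immediate early genes, of the chaperones and of macrophage and microglia markers in each library, with replicates 1 to 4 of stem, progenitor and niche from left to right. Chaperone medians stay between 3.95 and 4.48, core medians range from 2.23 to 6.56, and the marker median is lowest in the 4 progenitor libraries.

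Summed markers of macrophages and microglia were low in progenitor libraries and overlapped between stem and niche libraries. Fos, Egr2, Ier3 and Klf6 had instead every stem library above every niche library. Of 23 listed markers, 9 were tested, and none of the 9 was at 0 in every library. Their summed level was 2530 to 9990 scaled RPKM in stem libraries, against 129 to 288 in progenitor libraries and 3400 to 5850 in niche libraries. All 9 were higher in stem than in progenitor libraries, with a median log2 fold change of 4.04, and 8 of the 9 were lower in progenitor than in niche libraries. Between stem and niche 2 were higher, Mrc1 and Adgre1, and 2 lower, Ctss and Trem2. Stem replicate 2, the highest for most core genes, had the highest marker sum. The part of these markers in the core result was not tested. Single markers differed in their order of groups. Mrc1, a receptor of border and perivascular macrophages, averaged 354 scaled RPKM in stem libraries, 9.1 in progenitor libraries and 8.43 in niche libraries, high in stem alone as Fos, Egr2 and Klf6 were. Adgre1, which encodes the macrophage antigen F4/80, averaged 284, 7.37 and 45.1 in the same order. Tyrobp averaged 1480, 77.9 and 1360, low in progenitor libraries alone as Dusp6 and Klf2 were.

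Dividing-cell markers were highest in stem libraries, with 2 of 7 listed genes tested, Rrm2 and Plk1. Their sum was 287 to 563 scaled RPKM in stem libraries, against 51.1 to 142 in progenitor libraries and 4.92 to 14.9 in niche libraries, and stem replicate 2 had the lowest sum of the stem libraries. Their part in the core result was not tested.

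The most abundant chaperones passed no test between the populations. Hspa8, the constitutive Hsp70-type chaperone of the cytosol (chr9:40800984-40810087), had 1850, 2310, 1140 and 1550 scaled RPKM in stem libraries, against 1190, 1800, 1350 and 1670 in progenitor libraries and 1590, 1510, 932 and 1230 in niche libraries. All 3 groups overlapped. Hspa8 had a log2 fold change of 0.16 ± 0.27 between stem and progenitor (adjusted p = 0.875) and 0.36 ± 0.27 between stem and niche (adjusted p = 0.367).

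Hspe1, the mitochondrial co-chaperonin, had 178, 261, 276 and 277 scaled RPKM in stem libraries, against 395, 240, 189 and 232 in progenitor libraries and 293, 233, 130 and 176 in niche libraries. Stem replicate 1 was below the other stem libraries, and all groups overlapped. Hspa5, the Hsp70-type chaperone of the endoplasmic reticulum, had 385, 625, 171 and 328 in stem libraries, against 114, 270, 174 and 285 in progenitor libraries and 283, 504, 189 and 278 in niche libraries. Its highest value was in stem replicate 2, and its log2 fold change between stem and progenitor was 0.78 ± 0.41 (adjusted p = 0.368). Dnaja1, a J-domain partner of Hspa8, had 63.9 to 109 in stem libraries, 64.3 to 106 in progenitor libraries and 52.1 to 94.9 in niche libraries. With library size alone as the scaling, Hspa8, Hspe1 and Dnaja1 were called higher in stem than in niche libraries (log2 fold changes 1.06, 0.99 and 1.06) and higher in progenitor than in niche libraries (0.86, 1.01 and 1.01). The medians of all tested genes were then 0.58 and 0.62.

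Stress-response motifs are shown upstream of Hspe1 and Hspa5, chaperones that were picked by name. Each stretch was cut around its longest run of motif letters, so its motif was set by that choice. The stretches are from RefSeq on GRCm38.p6, plus strand, with the motif in capitals. In Hspe1 the capitals are heat shock element units in a row, TTCNNGAANNTTC overlapping GAANNTTCNNGAA, and in Hspa5 they are the endoplasmic reticulum stress element.
Hspe1, chr1:55088054-55088081: gtccgTTCTAGAACCTTCCGGAAggccc
Hspa5, chr2:34772020-34772048: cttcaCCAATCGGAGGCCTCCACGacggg
The heat shock element with 3 units was in 3 of the 37 chaperone windows, from Dnajb6 and Hspe1. It was in none of the 22 core immediate early windows and in 0.603% of all windows. The form with 2 units was in 24.3% of chaperone windows, 18.2% of core immediate early windows and 15.1% of all windows. The endoplasmic reticulum stress element, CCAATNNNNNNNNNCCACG, was in 2 chaperone windows, of Dnajc3 and Hspa5, and in 0.119% of all windows. Both strands were searched for each motif. Neither Hspe1 nor Hspa5 was called in any comparison.

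Dnajb1, a J-domain protein that is itself heat-inducible (chr8:83608193-83612653), just missed the test in both stem comparisons. It had 46.8, 69.3, 59.6 and 45.6 scaled RPKM in stem libraries, against 13.4, 20.5, 22.2 and 11.6 in progenitor libraries and 71.7, 12.2, 10.8 and 16.0 in niche libraries. Stem libraries were above all progenitor libraries and above niche replicates 2, 3 and 4, but niche replicate 1 had the highest value of all. Dnajb1 had a log2 fold change of 1.68 ± 0.50 against progenitor (adjusted p = 0.0573) and 1.41 ± 0.50 against niche (adjusted p = 0.0577), so neither passed. Without niche replicate 1 both passed, at 1.71 (adjusted p = 0.00118) against progenitor and 1.94 (adjusted p = 0.000254) against niche. The comparison with progenitor also passed without niche replicate 3 (adjusted p = 0.0471). It passed as well with library size alone as the scaling (adjusted p = 0.0129), with the 2 groups alone in the fit (0.00182) and with voom (0.0151). The comparison with niche passed as well with library size alone (adjusted p = 0.00146) and with voom (0.0167). Both passed without progenitor replicate 1 and niche replicate 1 together, in all 6 and 4 of the 21 alternatives.

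Hspa2 was the only chaperone called in the comparison of stem with progenitor libraries. It is an Hsp70-type chaperone best known from spermatogenesis and also expressed in brain (chr12:76404176-76406938). It had 33.7, 33.8, 20.4 and 30.3 scaled RPKM in stem libraries, against 157, 173, 89.5 and 135 in progenitor libraries and 87.5, 202, 173 and 171 in niche libraries. Every stem library was below every other library. Hspa2 had a log2 fold change of -2.18 ± 0.33 against progenitor (adjusted p = 0.000755) and -2.34 ± 0.33 against niche (adjusted p = 9.8e-05), and both calls held in all 21 alternatives.

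Hspb1, a small heat shock protein known from astrocytes and blood vessels (chr5:135887919-135889563), had 3.09, 4.3, 1.09 and 2 scaled RPKM in stem libraries, against 6.07, 7.81, 3.59 and 2.45 in progenitor libraries and 26.3, 53.7, 19.3 and 13.5 in niche libraries. All niche libraries were above all GFP-positive libraries. Hspb1 had a log2 fold change of -2.91 ± 0.52 between stem and niche (adjusted p = 0.000786) and -2.20 ± 0.52 between progenitor and niche (adjusted p = 0.012). The call between progenitor and niche was lost without progenitor replicate 4 (adjusted p = 0.052).

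Dnajc6, the neuronal J-domain protein auxilin that removes clathrin from vesicles (chr4:101496648-101642799), had 2.41, 0.292, 0.657 and 1.29 scaled RPKM in stem libraries, against 4.13, 4.42, 4.48 and 4.18 in progenitor libraries and 4.96, 23.0, 19.1 and 16.1 in niche libraries. The 3 groups did not overlap, and niche replicate 1 lay close to the progenitor libraries. Dnajc6 had a log2 fold change of -2.88 ± 0.51 between stem and niche (adjusted p = 0.000712) and -1.39 ± 0.51 between stem and progenitor (adjusted p = 0.13). Without niche replicate 1 it passed between stem and progenitor (adjusted p = 0.0195) and between progenitor and niche (log2 fold change -2.03, adjusted p = 0.00228).

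Dnajb2, a J-domain protein best known from neurons, had 3.38, 6.58, 2.56 and 4.88 scaled RPKM in stem libraries, against 23.4, 9.36, 13.5 and 6.91 in progenitor libraries and 17.0, 16.3, 9.83 and 10.7 in niche libraries. Stem libraries were below all others. Dnajb2 had a log2 fold change of -1.46 ± 0.46 against niche (adjusted p = 0.0339) and -1.35 ± 0.46 against progenitor (adjusted p = 0.102). The call against niche was lost without stem replicate 1, 3 or 4, progenitor replicate 2 or 3, or niche replicate 2, with adjusted p from 0.0502 to 0.107. It was also lost with library size alone (log2 fold change -0.84, adjusted p = 0.15), with the 2 groups alone in the fit (0.063) and with voom (0.0512). The difference from progenitor passed without niche replicate 1 (adjusted p = 0.04).

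**Figure D4:**
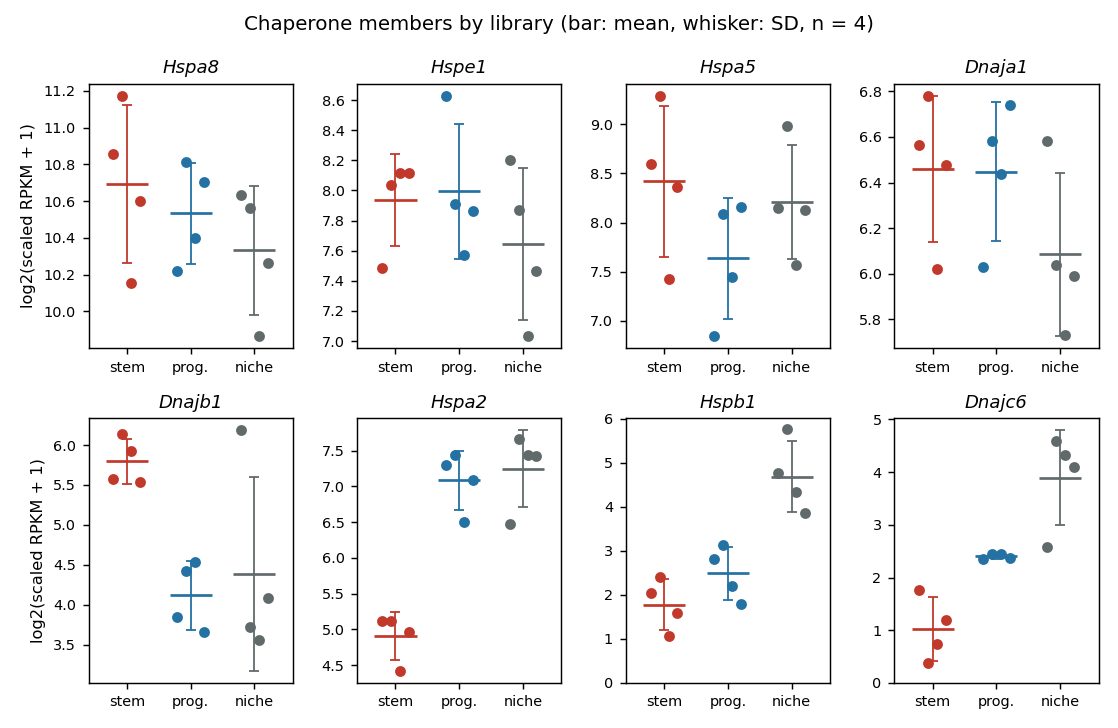
Level of 8 chaperone genes in each of the 12 libraries, as log2(scaled RPKM + 1), with stem, progenitor (prog.) and niche libraries from left to right, the group mean as a bar and the SD as a whisker (n = 4). Hspa8, Hspe1, Hspa5 and Dnaja1 overlap between all groups, Hspa2 is lowest in all 4 stem libraries, and niche replicate 1 is the high point of Dnajb1.

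The remaining chaperones passed no test and mostly overlapped between groups. Dnajc8, a J-domain protein of the spliceosome, had 113 to 167 scaled RPKM in stem libraries, 114 to 251 in progenitor libraries and 112 to 125 in niche libraries. Hspb6, a small heat shock protein of muscle and glia, had 24.5, 9.15, 23.2 and 20.3 in stem libraries, against 8.49 to 14.9 in progenitor libraries and 0.806, 2.62, 4.27 and 23.5 in niche libraries. Its difference between stem and niche was 1.83 (adjusted p = 0.0554), with niche replicate 4 alone in the stem range. Dnaja4 had 0.229 to 0.72 in stem libraries, against 2.47 to 5.39 in progenitor libraries and 0.208 to 12.9 in niche libraries. Stem libraries were below all progenitor libraries for Dnaja4 (log2 fold change -1.48, adjusted p = 0.182). Dnajb11, a J-domain protein of the endoplasmic reticulum, had 22.3 to 40.8, 11.3 to 29.4 and 19.8 to 63.3 in the same order. Dnajc25 was among the lowest, at 0.107 to 0.819 in stem libraries, 0 to 2.19 in progenitor libraries and 0 to 14.2 in niche libraries.

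By family, the chaperone calls were scattered. Of 6 Hsp70 members 1 was called between stem and progenitor and between stem and niche (Hspa2). Between stem and niche 1 of 11 Dnajc members (Dnajc6), 1 of 7 Dnajb members (Dnajb2) and 1 of 4 chaperonin members (Hspd1-ps3) were called. Of 3 small heat shock members 1 was called between stem and niche and between progenitor and niche (Hspb1). Of 3 Dnaja members none was called in any comparison. Over all genes 7.11% were called between stem and progenitor, 21.6% between stem and niche and 11.5% between progenitor and niche. An unadjusted p under 0.05 was found for 6 of the 34 chaperones between stem and progenitor (17.6%, as over all genes), for 10 between stem and niche (29.4%, against 34.9% of all genes) and for 7 between progenitor and niche (20.6%, against 27.0%). The pseudogene Hspd1-ps3 had 67.3 to 96.4 scaled RPKM in stem libraries, against 23.6 to 63.0 in progenitor libraries and 12.4 to 30.3 in niche libraries (stem minus niche 1.88 ± 0.37, adjusted p = 0.00167). It is a near copy of Hspd1, as Hspe1-ps2 and Hspe1-ps3 are of Hspe1, and the split of reads between copies is uncertain. Hspb11, despite its symbol, encodes a protein of intraflagellar transport, and without it and the 3 pseudogenes 4 of 30 chaperones were called between stem and niche, all lower.

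Markers of other cell types had the same order of groups as some single called chaperones and as Sgk1 and Dusp4. The chaperones as a class did not move with them, with median log2 fold changes of 0.01, 0.08 and -0.05 in the 3 comparisons. All 6 tested oligodendrocyte markers, of 8 listed, were lower in stem than in either other group, as Hspa2 was. Their sum was 146 to 614 scaled RPKM in stem libraries, against 2170 to 6190 in progenitor libraries and 2620 to 5840 in niche libraries. Mural cell markers, 5 tested of 10 listed, had the same order, with sums of 11.8 to 185, 669 to 1640 and 559 to 1770. Rgs5, Vtn and Higd1b were called lower in stem than in either other group. Pdgfrb was called lower in stem against progenitor alone, and Cspg4 against niche alone. Neuroblast markers, 4 tested of 6 listed, were highest in progenitor libraries, as Dusp4 was, with sums of 54.1 to 103, 795 to 2120 and 185 to 434. Fibroblast markers, all 5 tested, summed to 4.15 to 41.7, 70.5 to 163 and 12.5 to 52.8. The 6 tested mature neuron markers, of 8 listed, were highest in niche libraries, as Dnajc6 was. They summed to 16.2 to 33.3 in stem libraries, against 31.2 to 63.1 in progenitor libraries and 124 to 694 in niche libraries. Stem and progenitor sums thus overlapped. Snap25 alone was called between stem and progenitor, lower in stem, while Camk2a and Slc17a7 averaged higher in stem. Endothelial markers, 7 tested of 13 listed, summed to 19.4 to 57.4, 65.1 to 115 and 203 to 1070, and astrocyte markers, 6 tested of 9 listed, to 557 to 1140, 3390 to 4870 and 4900 to 6480, the order of Hspb1 and Sgk1. None of the tested markers was at 0 in every library, and their part in these results was not tested.

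The upstream kinases and factors of the immediate early genes gave no call between stem and progenitor libraries. Of 30 listed inputs 13 were tested, with a median log2 fold change of 0.25 in that comparison. Mrtfb, a coactivator of serum response factor, was lower than in niche libraries in both GFP-positive groups. Mrtfb had log2 fold changes of -2.25 in stem and -2.02 in progenitor libraries (adjusted p = 0.00423 and 0.0156). With the limma test, 20 further rapid-response genes of 38 listed gave 2 calls between stem and progenitor, both higher in stem, where 7.11% of all genes were called. These were Nfkbid, a nuclear regulator of NF-kB, at 3.18 (adjusted p = 0.00734), and Cebpb, a transcription factor of myeloid cells, at 2.07 (adjusted p = 0.0211). Against niche Nfkbid, Mcl1, Pim1 and Cited2 were higher in stem, and Bhlhe40, Errfi1 and Tob1 were lower, with Bhlhe40, a clock-related repressor, at -3.25. These are 7 of the 20, where 21.6% of all genes were called. Between progenitor and niche Ptgs2, Bhlhe40 and Cebpb were lower in progenitor libraries, 3 of the 20, where 11.5% of all genes were called.

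On the chaperone side, 15 of 32 listed cochaperones and regulators were tested. Cryab, the small heat shock protein alpha B-crystallin, which is abundant in oligodendrocytes and astrocytes, averaged 68.5 scaled RPKM in stem libraries, against 681 in progenitor and 1090 in niche libraries. Its log2 fold change was -3.20 against progenitor (adjusted p = 0.00118) and -3.79 against niche (adjusted p = 7.49e-05). Cdc37l1, a partner of Hsp90, was lower in stem than in niche libraries by -1.21 (adjusted p = 0.0261). Hsf1, the main heat shock factor, was not called. Of 16 tested chaperones outside the rule, Tcp1, a subunit of the cytosolic chaperonin, and Clpb, a mitochondrial disaggregase, were higher in stem than in niche libraries (0.82 and 1.69). Of 8 tested regulators of the unfolded protein response, Xbp1 was lower than in niche libraries in both GFP-positive groups (-1.69 and -1.65). No list of these 3 had more than 2 calls in a comparison, where 7.11%, 21.6% and 11.5% of all genes were called between stem and progenitor, stem and niche, and progenitor and niche.

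The 5 members that matched by letters only were Junos, Gadd45gip1, Ier3ip1, Zfp369 and Hspbap1, and none was called. Ier3ip1, a protein of the endoplasmic reticulum, was the highest, at 58.4 to 70.3 scaled RPKM in stem libraries, 57 to 101 in progenitor libraries and 89.6 to 129 in niche libraries. Junos is an RNA antisense to Jun, and whether the authors counted by strand is not given in the sources used here, so its reads cannot be told apart from those of Jun. The core genes were also shorter than the chaperones, with a median span of 4259 bases and 4 exons, against 17818 bases and 8 exons in the chaperones and 19737 bases and 8 exons over all tested genes with a position.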

How the data were processed

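Per the labels' protocols, sorted dentate gyrus cells gave RNA that was amplified and sequenced with Illumina libraries. The genome build was GRCm38 (mm10) per the submitters' processing notes. Which aligner and counter were used is not given in the sources used here. The deposited values are on a log2 scale and were read as log2(RPKM + 1). With the log undone, all values above 0 were whole reads within 1e-05 reads. For 9301 genes the exon length was found from the values, so wholeness is a weaker check there. The labels mention no molecular identifiers for the amplified RNA, so depth covers counting error only.

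The filter kept 8360 genes. It asked for 0.767 CPM, equal to 10 reads at the median depth, in 4 or more libraries, and for 15 reads in total. RPKM was divided by trimmed-mean (TMM) factors, 1 RPKM was added, and log2 values of all 12 libraries were fitted with limma 3.58.1 in R 4.3.3 (trend, robust), with Benjamini-Hochberg adjustment over all tested genes. The script was tested on simulated data. Symbols and positions are from GENCODE M21, promoters from RefSeq.

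Named genes were members called in at least 1 comparison, a list of well-known members, and pathway genes past the threshold. Other members and genes that passed no test (Dusp22, Dusp26, Dusp28, Klf1, Dnaja4, Dnajb11, Dnajc8, Dnajc25, Hspb6, Hspb11, the Hspe1 pseudogenes and Hsf1) and single marker genes were named after their values were seen. Members and lists were chosen with earlier results of these data known. No 2 libraries of a group lay within sampling noise of each other. Alternatives are given in the closing section. A result on 1 gene of a pathway list is not reported here.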

Additional observations from a re-analysis of the deposited data

Results flagged for a closer look

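In groups of 4 libraries, 10 of the 102 group values checked had 1 library far from the other 3 (a gap to the nearest other library above Dixon's 95% critical share of the group's range), where chance gives about 1 in 20. All levels here are log2(scaled RPKM + 1).

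Progenitor replicate 1 accounted for 5, in each as the lowest library. Its level was 4.61 for Fos, with the rest of the group at 7.32 to 7.76, and 3.15 for Egr1, against 6.10 to 6.26. It was 6.58 for Gadd45g, against 8.16 to 8.31, 0.49 for Gadd45b, against 2.91 to 3.12, and 0.49 for Klf11, against 1.75 to 1.82. Niche replicate 1 was the lowest for Egr1, at 2.52, against 4.31 to 4.59, and for Nr4a1, at 0.71, against 3.38 to 3.91.

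Progenitor replicate 3 was the highest of its group for Sgk1, at 7.28, against 5.50 to 5.77. Stem replicate 1 was the lowest for Hspe1, at 7.48, against 8.03 to 8.12, and the highest for Dusp4, at 0.43, where the other stem libraries were at 0.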

How the results depend on the processing

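No result changed its direction while called. For stem against progenitor, 594 genes were called in all, 1421 with those 2 groups alone in the fit, 1116 without progenitor replicate 1 and niche replicate 1 together, and 355 (without stem replicate 2) to 1093 (without niche replicate 1) with 1 library left out. Immediate early calls (9) ranged from 5 to 11 with 1 library left out, and the immediate early median (0.17) from 0.09 to 0.31. Chaperone calls (1) were 5 with the 2 groups alone, 2 with library size alone, 2 with voom, 3 without both replicates 1, and 1 to 5 with 1 library left out.

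For stem against niche, 1806 genes were called in all and 2997 without both replicates 1. The immediate early median (0.41) was 0.72 with a pseudocount of 0.1 RPKM, 0.66 with voom, 0.2 with a pseudocount of 4 RPKM and 0.27 to 0.59 with 1 library left out. Chaperone calls (5) were 13 with library size alone, 10 higher and 3 lower against 1 and 4, 11 without both replicates 1, and 4 to 9 with 1 library left out. The chaperone median (0.08) was 0.63, 0.22 and -0.17 with library size alone, a pseudocount of 0.1 RPKM and without both replicates 1, and -0.17 to 0.13 with 1 library left out. With library size alone, calls over all genes were 2017 higher and 586 lower, against 910 and 896, and immediate early calls were 11 higher and 1 lower.

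For progenitor against niche, 958 genes were called in all, 1839 with library size alone (1525 higher and 314 lower, against 475 and 483), 539 with the 2 groups alone, 1986 without both replicates 1 and 535 to 1641 with 1 library left out. Immediate early calls (6) were 10 without both replicates 1 and 7 with library size alone (6 higher and 1 lower). The immediate early median (0.05) was 0.51 with library size alone and -0.17 to 0.15 with 1 library left out. Chaperone calls (1) were 8 with library size alone (7 higher and 1 lower), 2 with a pseudocount of 4 RPKM, 4 with voom, 5 without both replicates 1 and 0 to 5 with 1 library left out. The chaperone median (-0.05) was 0.48 with library size alone, -0.19 without both replicates 1 and -0.22 to 0.07 with 1 library left out.

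With library size alone the median of all tested genes was 0.58 between stem and niche and 0.62 between progenitor and niche, against 0.09 and 0.15, so changes with that scaling are relative to a shifted centre. With the core genes alone, chosen as an alternative after seeing the data, the immediate early medians were 2.12, 1.65 and -1.08, and 3 genes were called between progenitor and niche. The cause of the other changes was not tested. Depth limits Dusp4, Dusp5, Dusp26, Egr3, Klf1, Klf8, Klf11 and Dnajc25, which had under 10 reads in most libraries of at least 1 group.

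Whether equal replicate numbers mark a shared day or animal is not stated, and the libraries were not treated as paired. Correlations of same-numbered libraries were -0.128 to 0.206. Those between progenitor and niche were all positive, at 0.03 to 0.206, and not every library correlated best with its own number. With the replicate block 607, 1814 and 947 genes were called in the 3 comparisons, and immediate early calls were 9, 10 and 7. Sgk1 passed between progenitor and niche with it (adjusted p = 0.0421).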
